A study of Mus musculus with 2 samples.

Results

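Among the barcodes of the mouse aorta-gonads-mesonephros (AGM) region at embryonic day 11 (E11), 149 carried the epithelial adhesion genes Epcam and Cdh1 with a sum of 3 or more unique molecular identifiers (UMIs, the counted RNA molecules). They were chosen from 16418 barcodes with at least 2000 UMIs and under 10% mitochondrial UMIs, and barcodes with 5% or more of their UMIs from the globin genes Hbb-y, Hbb-bh1 and Hba-x were left out. The WT library held 70 of these members among 8253 barcodes (0.848%, 95% interval 0.662 to 1.07%), and the KO library held 79 among 8165 (0.968%, 0.767 to 1.20%). Members are named by library and number, from WT 1 and KO 1, which held the most UMIs. The counts of Epcam and Cdh1 chose the members and are given below as a description only.

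Whole AGMs of PDGFRB +/+ (WT) and PDGFRB -/- (KO) embryos were dissociated with collagenase, and 1 library of single cells per genotype was made with the 3′ chemistry of 10x Chromium, each loaded for 7000 cells. The KO mice carry a germline deletion of Pdgfrb, the receptor for PDGF-B, kept as heterozygotes on a C57BL/6J background, so the receptor was absent from all tissues and not from the perivascular cells alone. The study asked how these cells support blood stem cells. The WT library held 179743201 UMIs and the KO library 174597654. With 1 library per genotype no test was possible, no p-value is given, and all intervals are exact 95% intervals that cover counting error only.

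Several epithelia meet or lie near the AGM at this stage. The nephric duct runs along the body wall under the control of Pax2, Pax8, Lhx1 and Gata3, and sends signals that turn the neighboring mesenchyme into mesonephric tubules, which pass through a Wnt4-positive stage. The gut tube expresses Foxa2 and Shh, the skin ectoderm expresses Trp63 and the keratins Krt5 and Krt14, the coelomic epithelium of the gonadal ridge expresses Wt1 and Lhx9, and primordial germ cells on their way to the gonad express Epcam and Cdh1 as well. A rule based on Epcam and Cdh1 can therefore gather cells of several origins.

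The targeted gene was lower in the KO library. Pdgfrb (chromosome 18, 61045150 to 61085061 of GRCm38) reached 27.3 CPM (the UMIs that the barcodes of a group hold for a gene, per 1000000 UMIs they hold in all) in WT members and 7.46 CPM in KO members, with UMIs in 32 of 70 and 16 of 79 members. In all other barcodes that passed the filters it stood at 43.5 (WT) and 7.09 CPM (KO). Where the deleted part lies relative to the sequenced 3′ end is not given in the sources used here, so the remaining KO UMIs do not check the label. The study removed KO cells in which PDGFRβ expression was detected. Such barcodes were kept here, and without them 63 KO members remained. The libraries also differed in sex. Xist, the RNA of the inactive X chromosome, reached 705 CPM in WT members and 1.19 CPM in KO members, while Ddx3y, Eif2s3y and Kdm5d of the Y chromosome had no UMI in any of the 70 WT members and UMIs in 57, 54 and 35 of the 79 KO members. Genotype, sex, dissection and library cannot be told apart in any comparison of KO with WT.

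The members held more UMIs than other barcodes, with a median of 40210.5 in WT (3706 to 149751) and 26019 in KO (3575 to 148287), against 13321 and 12391 over all barcodes that passed the filters. Of the members, 26 in WT and 32 in KO lay just inside the threshold with exactly 3 UMIs, and 76 and 108 barcodes lay just outside it with exactly 2. When every barcode was thinned to 2000 UMIs, 3 members remained in each library. The threshold stayed at 3 UMIs, so a fall was fixed in advance for barcodes of this depth. It does not show how many members were included because of their depth. In globin-rich barcodes, which should lack both genes, an Epcam or Cdh1 UMI was found in 5 of 753 in WT (0.664%, median 16902 UMIs) and 1 of 222 in KO (0.450%, median 19831), against 6.62% and 7.92% of all barcodes. Scores for doublets, droplets with more than 1 cell, were among the highest of the library in 14 WT members (20%) and 15 KO members (19.0%), against 8.28% and 8.85% of all barcodes. The libraries shared 20 barcodes that passed the filters, and none of them was a member.

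Claudins were found in a minority of the members. These proteins seal the tight junctions between epithelial cells. Their genes Cldn3, Cldn4, Cldn6 and Cldn7 had a sum of at least 2 UMIs in 46 of 149 members (30.9%, 22 in WT and 24 in KO), exactly 1 UMI in 8, and none in 95 (63.8%, 46 in WT and 49 in KO). Members with at least 2 claudin UMIs had a median of 10 UMIs of Epcam and Cdh1, and 420 CPM of the fibroblast collagens Col1a1, Col1a2 and Col3a1. Members with no claudin UMI had a median of 3 UMIs of Epcam and Cdh1 and 1162 CPM of these collagens. Of the 27 members with 10 or more UMIs of Epcam and Cdh1, 24 had at least 2 claudin UMIs, and of the 32 members with any Cdh1 UMI, 29 did. The claudins were looked at after the members had been chosen, and their part in which members are epithelial was not tested.

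**Figure D1:**
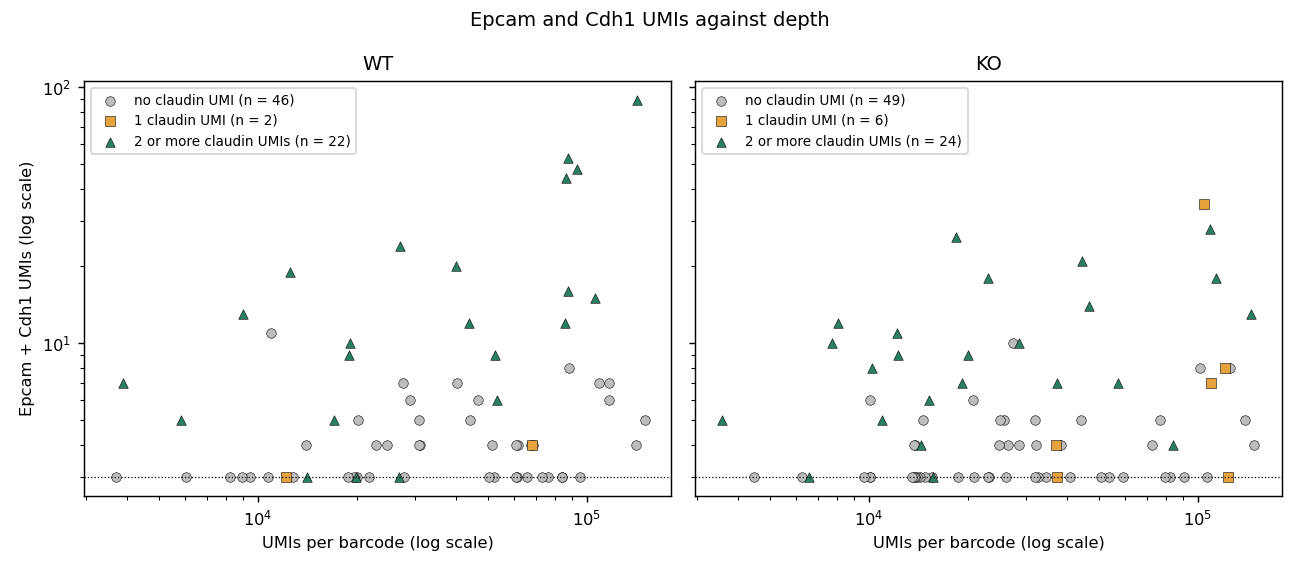
Sum of Epcam and Cdh1 UMIs (y axis, log scale) against all UMIs of the barcode (x axis, log scale) for the 70 WT and 79 KO members, 1 point each, with the threshold of 3 as a dotted line. Members with at least 2 claudin UMIs (triangles, 22 in WT and 24 in KO) lie mostly above the members with none (gray circles, 46 and 49), many of which sit on the threshold at every depth.

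Over all members, the epithelial genes stood far above the other barcodes of the same library. Cldn7 reached 90.0 CPM in WT members against 0.457 CPM in the rest, and 27.5 against 0.576 CPM in KO. Esrp1, a splicing factor of epithelial cells, reached 21.7 against 0.102 CPM in WT and 14.6 against 0.0720 CPM in KO. Krt8, a keratin of simple epithelia, was also common outside the members, with 112 CPM in WT members against 42.2 CPM in the rest, and 58.8 against 9.45 CPM in KO. Collagen Col1a1 was lower in members than in the rest in both libraries, at 185 against 488 CPM in WT and 168 against 261 CPM in KO. Lists of blood and vessel genes were low but not absent. The macrophage list summed to 5.43 to 7.73 CPM in WT members against 306 CPM in the rest and to 1.14 to 5.26 against 267 CPM in KO, with Adgre1, C1qa and Cx3cr1 at 0. The endothelial list, with 10 of 11 genes detected and Egfl7 the most abundant, summed to 40.1 to 60.3 CPM in WT members against 204 CPM in the rest, and to 59.8 to 78.7 against 237 CPM in KO. The erythroid list, whose globins the rule used, summed to 215 to 248 CPM in WT and 67.3 to 98.3 CPM in KO members. In each of these ranges the values are those of members with and without Pax2 or Pax8.

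The label of a nephric and gut epithelium held for a part of the members only. Pax2 and Pax8, the markers of the nephric lineage, had a UMI in 11 WT members (15.7%, 8.11 to 26.4%) and 18 KO members (22.8%, 14.1 to 33.6%), and these were 11 of 158 and 18 of 114 of the barcodes with Pax2 or Pax8 in the libraries. With each barcode thinned to 2000 UMIs, 4.29% and 7.59% had such a UMI. Of the endoderm, 13 of the 15 genes of the pan-endoderm list were detected, and the list summed to 211 to 213 CPM in WT members against 97.5 CPM in the rest, and to 49.1 to 110 against 61.5 CPM in KO. Gata6, also a mesenchymal gene, was its most abundant gene, and Foxa2, Shh and Foxa1 had 77, 134 and 57 UMIs in 9, 10 and 13 members. Genes of later gut regions were sparser. The hepatic and intestinal factor gene Hnf4a had 1 UMI in WT members and none in KO members, the hindgut factor gene Cdx2 had none and 3, the pancreatic factor gene Pdx1 had 3 and none, and the lung and thyroid factor gene Nkx2-1 had none in either library, as did Foxa3 and Sox17 of the pan-endoderm list. The members are therefore called here by their rule, as Epcam/Cdh1-positive barcodes.

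To describe which kinds of cells the rule gathered, members were grouped by a few marker genes chosen after their values were seen, so the groups are a description. Of the 149 members, 53 fell into 1 of 6 such groups, 1 (WT 2) into both nephric groups, and 95 (47 in WT and 48 in KO) into none. The heat map of marker genes is sorted by these groups, so blocks of the genes that made them follow from the sorting.

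**Figure D2:**
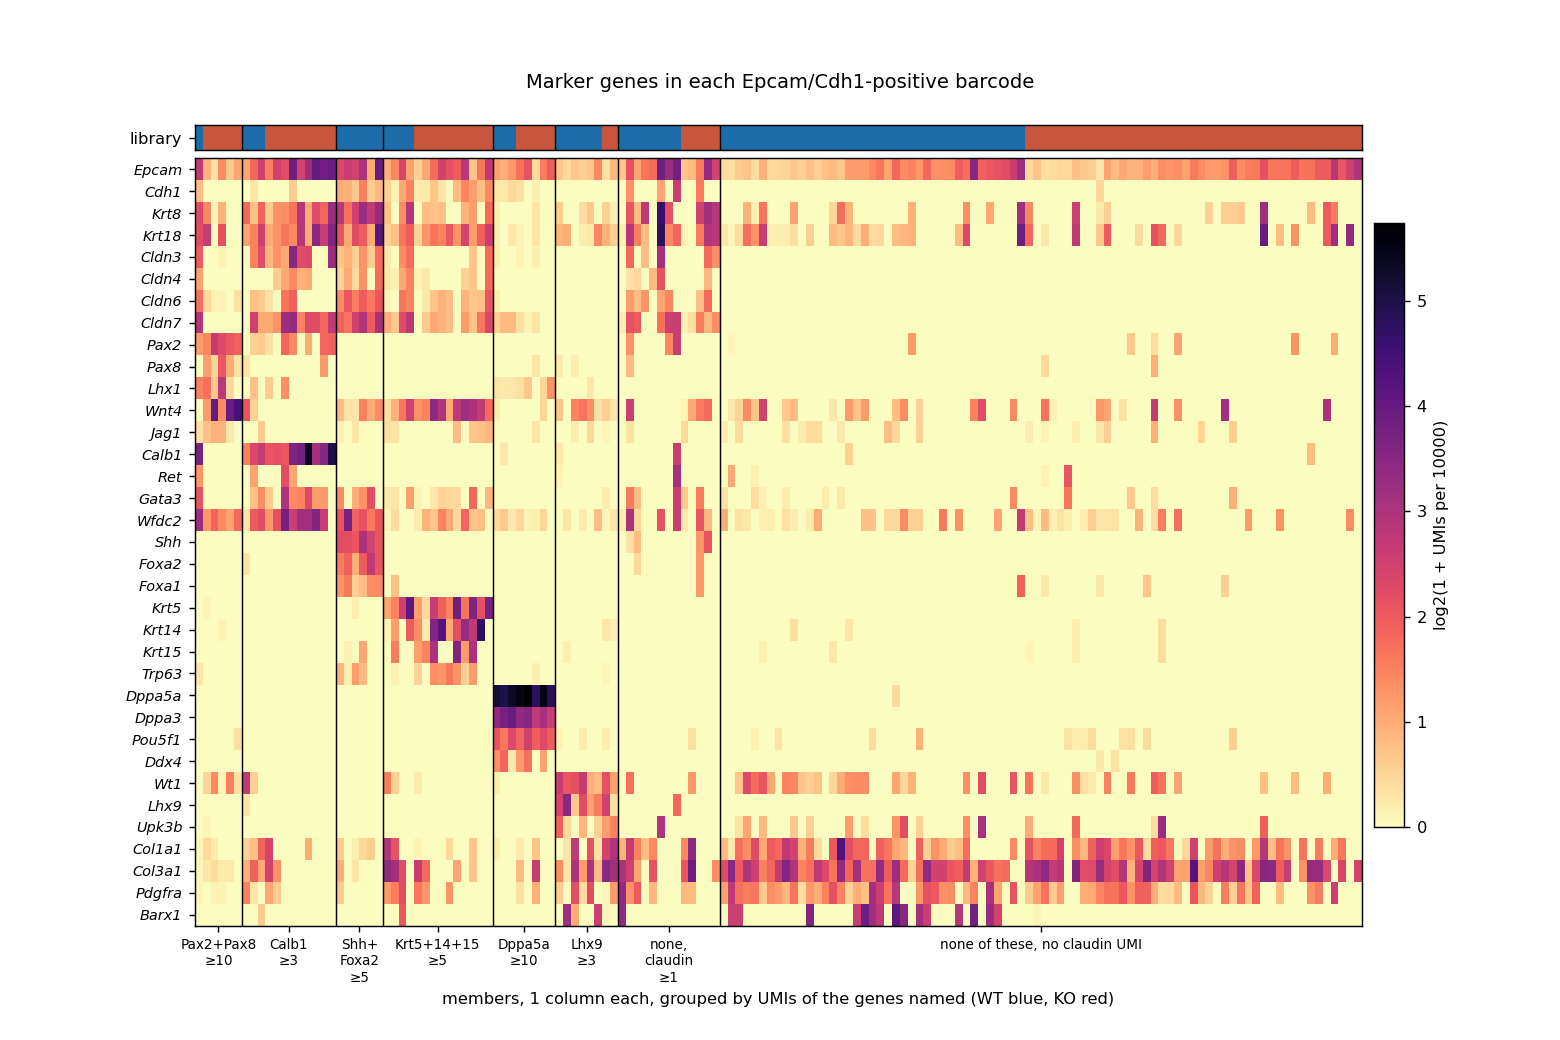
Marker genes (rows) in each of the 149 members (columns), colored by log2(1 + UMIs per 10000), with the library above (WT blue, KO red) and columns grouped by UMIs of the genes named below. The blocks of Calb1, Shh and Foxa2, the basal keratins, Dppa5a and Lhx9 follow from this grouping. Dppa3, which was not used in it, is seen in the Dppa5a block. The largest block, with none of these genes and no claudin UMI, carries Col1a1 and Col3a1.

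Duct genes were found together in members with Calb1, a calcium-binding protein of the duct (chromosome 4, 15881264 to 15908064). Calb1 had 3 or more UMIs in 4 WT members, with 168, 18, 10 and 8, and in 9 KO members, with 41, 21, 14, 12, 11, 8, 7, 6 and 6. All 4 WT members and 6 of the 9 KO members had a Pax2 or Pax8 UMI, and 3 of the 4 and all 9 had at least 2 claudin UMIs. WT 2, the member with the highest Calb1 count and 141658 UMIs in all, had 79 Epcam, 10 Cdh1, 18 Pax2, 46 Gata3, 26 Lhx1, 20 Ret and 121 Wfdc2 UMIs, and only 4 collagen UMIs. WT 33, with 8 Calb1 UMIs and 24 of the coelomic factor gene Wt1, had no claudin, Gata3, Ret or Lhx1 UMI.

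Several duct genes of this group stood at close levels in the libraries, but the WT levels rest mostly on WT 2. The other WT members of the group, WT 33, WT 34 and WT 53, held 44065, 43915 and 18996 UMIs in all. They had 0, 3 and 3 UMIs of Gata3 and 1, 13 and 7 of Wfdc2. Gata3, a factor needed for duct guidance (chromosome 2, 9857078 to 9890034), stood at 209 CPM (156 to 274) in the WT and 192 CPM (125 to 281) in the KO members of the group, so the intervals overlapped, and WT 2 held 46 of the 52 WT UMIs. Wfdc2, a secreted protein with a WAP domain, stood at 571 and 554 CPM, with 121 of the 142 WT UMIs in WT 2, and Krt18 at 302 and 281 CPM. Kitl, the ligand of the Kit receptor, stood at 181 and 214 CPM, and Ret, the receptor for GDNF at the duct tip, had 25 UMIs in WT and 9 in KO. Lhx1 stood at 117 (WT) and 36.9 CPM (KO). WT 2 alone held 26 of the 29 Lhx1 UMIs of the WT group. The KO members of the group were shallower, with a median of 10999 UMIs against 43990 in WT. In the libraries as a whole, 22 WT and 24 KO barcodes had 3 or more Calb1 UMIs, of which the rule kept 4 and 9.

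A different profile was found in 5 KO members with 10 or more UMIs of Pax2 and Pax8, KO 2, KO 5, KO 7, KO 21 and KO 30. Their Pax2 counts were 25, 65, 44, 17 and 10, and their Pax8 counts were 18, 5, 36, 5 and 1. Wnt4, the signal that starts tubule formation (chromosome 4, 137277489 to 137299726), had 19, 185, 18, 76 and 75 UMIs, and Jag1, a Notch ligand, had 10, 11, 10, 1 and 0. None of the 5 had a UMI of Calb1, Gata3 or Ret, and their claudin counts were 5, 1, 2, 0 and 1. They shared other genes of the duct list, with 33, 7, 66, 2 and 0 UMIs of Lhx1 and 20, 33, 19, 6 and 9 of Wfdc2. In WT, WT 36 had 20 Wnt4, 8 Gata3 and 28 Wfdc2 UMIs, and WT 33 had 14 Wnt4 and 8 Calb1 UMIs. Wnt4 reached 789 CPM over these 5 members, Spp1, the bone and kidney protein osteopontin, 220 CPM, and Npy, neuropeptide Y, 220 CPM. KO 2 held 83.1% of all Spp1 UMIs and 60.4% of all Npy UMIs of the members. WT 2 was the only WT member with 10 or more Pax2 and Pax8 UMIs. Other WT barcodes had such counts but fell outside the rule: 8 WT and 9 KO barcodes had 10 or more, of which the rule kept 1 and 5.

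**Figure D3:**
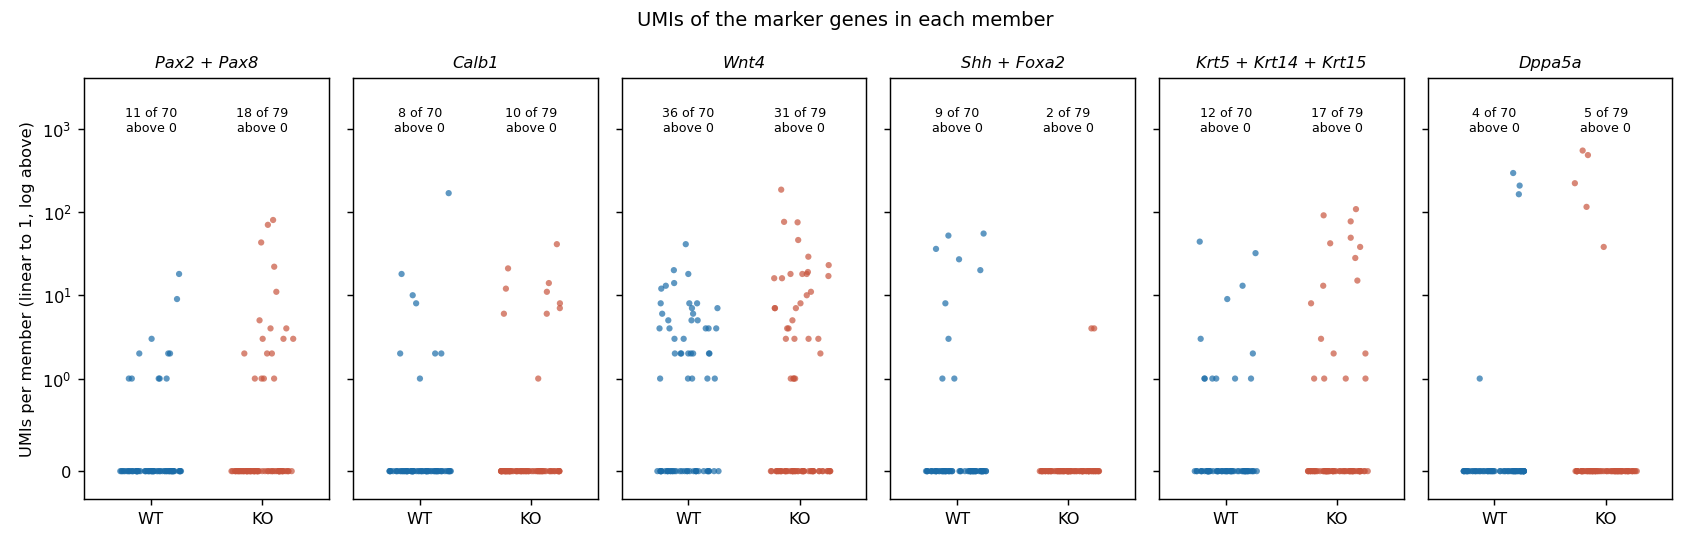
UMIs of 6 genes or gene sums (panels) in each WT (blue, n = 70) and KO (red, n = 79) member, 1 point per member, on a y axis that is linear to 1 and logarithmic above. Most members sit at 0 in every panel, Wnt4 has UMIs in 36 WT and 31 KO members, Dppa5a separates 8 members with 38 or more UMIs from the rest with at most 1, and Shh with Foxa2 reaches 5 or more UMIs in WT members alone.

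The endoderm genes Shh and Foxa2 were confined to WT among the members at 5 or more UMIs. Shh, a hedgehog ligand (chromosome 5, 28456815 to 28467256), had 34, 31, 28, 19, 9 and 4 UMIs in WT 9, WT 11, WT 13, WT 43, WT 50 and WT 59. Foxa2, a forkhead factor of endoderm (chromosome 2, 148042877 to 148046969), had 18, 24, 8, 8, 11 and 4 in the same members. All 6 had at least 2 claudin UMIs, none had a Pax2 or Pax8 UMI, and their median of 34 UMIs of Epcam and Cdh1 was above that of every other group with more than 1 member. Krt8 reached 500 CPM and Wfdc2 546 CPM in this group. The 6 members differed among themselves, since WT 11 had 32 Sox2 and 108 Wfdc2 UMIs, and WT 13, WT 9 and WT 43 had 11, 8 and 2 UMIs of Trp63, with 1 in WT 11 and none in the others. In KO, 2 members had UMIs of these genes, 4 each, and 1 further KO barcode, outside the rule with 2 Epcam and Cdh1 UMIs, had 5 or more. Notochord and floor plate express Shh and Foxa2 as well. Of the 13 genes listed for notochord and neural tube, Noto, T, Sox1 and Olig2 had no UMI in any member and 9 were detected, among them Shh, Foxa2 and Sox2.

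Members with 5 or more UMIs of Krt5, Krt14 and Krt15, the keratins of stratified epithelia, numbered 4 in WT and 10 in KO. Krt5 counts ran from 9 to 27 in the 4 WT members and from 2 to 36 in the 10 KO members, and Krt14 (chromosome 11, 100203162 to 100207548) from 0 to 11 and from 0 to 79. The basal factor Trp63 had a UMI in 1 of the 4 and 7 of the 10. No member of the group had Pax2 or Pax8, and 12 of the 14 had at least 2 claudin UMIs. Wnt4 was present in all 14, with 3 to 46 UMIs, and stood at 100 (WT) and 415 CPM (KO). The WT levels of the group rest mostly on WT 7 and WT 12, which held 106078 and 87497 UMIs with 3 and 8 of Wnt4 and fell into another cluster than WT 52 and WT 55, which held 19016 and 17011 UMIs with 4 and 8 of Wnt4. A chemokine and other WNT ligands were higher in KO as well, with Cxcl14 at 78.4 CPM (WT) and 760 CPM (KO), Wnt6 at 95.8 and 323 CPM, and Wnt7b at 17.4 and 146 CPM. The collagens stood at 2082 CPM in the WT and 330 CPM in the KO members of the group, and their part in these differences was not tested.

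Members with genes of primordial germ cells were the most sharply set apart. Dppa5a, a gene of pluripotent and germ cells (chromosome 9, 78367052 to 78368177), had 293, 163 and 207 UMIs in WT 14, WT 27 and WT 28, and 481, 545, 221, 115 and 38 in KO 9, KO 11, KO 14, KO 41 and KO 63. Only 1 of the other 141 members had any Dppa5a UMI, and it had 1. Dppa3, which protects the imprinted genome, had 65 to 80 UMIs in the 3 WT and 7 to 110 in the 5 KO members, and Pou5f1, the pluripotency factor OCT4, had 11 to 28 and 4 to 48. Dppa5a stood at 3459 CPM in the WT and 4165 CPM in the KO members of the group, and Sox2 at 334 and 262 CPM. Krt8 and Krt18 were at or under 10.4 CPM in both libraries, and the collagens stood at 5.22 CPM in WT. In KO the collagens reached 229 CPM, with 56 of these UMIs in KO 14 and 21 in KO 9. KO 14 also had 2 Pax8 UMIs, and its doublet score was among the highest. The rule kept 3 of 4 WT and 5 of 7 KO barcodes with 10 or more Dppa5a UMIs. Members with 10 or more Dppa5a UMIs thus made up 8 of the 149 Epcam/Cdh1-positive barcodes (5.37%), a number close to that of the 10 Calb1-positive barcodes with Pax2 or Pax8.

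Lhx9, a factor of the gonadal ridge (chromosome 1, 138825186 to 138848577), had 3 or more UMIs in 6 WT members, with 84, 50, 23, 8, 6 and 4, and in 2 KO members, with 69 and 3. Wt1 had 61, 27, 23, 33, 5 and 3 UMIs in WT 5, WT 16, WT 21, WT 24, WT 29 and WT 35, and 52 and 12 in KO 1 and KO 12. None of the 8 had a claudin or Cdh1 UMI, and their Epcam counts were 3 to 8. Of all barcodes with 3 or more Lhx9 UMIs, the rule kept 6 of 133 in WT and 2 of 73 in KO.

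The 95 members in none of these groups had a median of 4 UMIs of Epcam and Cdh1 in WT and 3 in KO, and 82 of them had no claudin UMI. Their collagens stood at 1173 (WT) and 1103 CPM (KO). Genes of the mesenchyme were common there, with Twist1 at 219 (WT) and 353 CPM (KO), and Prrx1 at 154 and 228 CPM. Barx1, a factor of the stomach mesenchyme, stood at 246 (WT) and 0.567 CPM (KO). The doublet scores of 9 of the 47 WT and 10 of the 48 KO members were among the highest. Whether these are mesenchymal cells with some Epcam RNA or droplets with an epithelial cell as well was not tested.

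Clustering of the pooled members, made without the genes of the rule, gave 10 clusters. By markers, 1 cluster of 15 members was nephric duct-like (5 WT and 10 KO), 1 of 8 was germ cell-like and held the 8 Dppa5a members, and 1 of 18 was coelomic epithelium and gonadal ridge-like (14 and 4). The other 7 stayed unnamed. The largest of them held all 6 Shh and Foxa2 members and 10 of the 14 keratin members together. WT 2 held 50.6% of the UMIs of the nephric duct-like cluster, and 2 clusters, of 12 and 9 members, came from 1 library each.

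The members were then split at 1 UMI of Pax2 and Pax8, within each library. The Pax2/Pax8-positive side held 11 WT members with 646423 UMIs and 18 KO members with 876332 UMIs, and 59 and 61 members were negative. Median depth was 43915 against 31111 UMIs in WT and 33211 against 25113 in KO, so the positive side was the deeper in both. WT 2 gave 21.9% of the positive UMIs in WT, and KO 2 gave 16.6% in KO. Of 9370 genes with at least 50 UMIs over all members, with Pax2 and Pax8 set aside, 50 (0.534%) were at least 2-fold higher on the positive side in both libraries, and 188 (2.01%) at least 2-fold lower in both. The log2 ratio had the same sign in both libraries for 5360 of the 9370, and the median over all of them was -0.13 in WT and -0.09 in KO.

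Duct genes led the positive side. Of the 15 genes of the nephric duct list that passed the minimum of UMIs, 7 were at least 2-fold higher in both libraries, against 0.534% of all genes, and 0 lower, with a median log2 ratio of 1.84 in WT and 0.74 in KO. Calb1 stood at 322 CPM on the positive and 1.09 CPM on the negative side in WT, a log2 ratio of 8.21 (6.64 to 10.50), and at 113 and 11.3 CPM in KO, a log2 ratio of 3.32 (2.70 to 3.98). Lhx1 stood at 44.9 against 1.81 CPM in WT and 129 against 4.85 CPM in KO. Wfdc2 stood at 268 against 91.1 CPM and 175 against 43.3 CPM, and Emx2, a homeobox factor of the duct and gonad, at 91.3 against 24.6 CPM and 54.8 against 21.4 CPM. Without WT 2, an alternative chosen after seeing the data, the WT median of the list was 0.72, the WT log2 ratio of Lhx1 went from 4.63 to 1.72 (-0.97 to 4.08), and that of Wfdc2 from 1.55 to 0.18 (-0.28 to 0.61). That of Calb1 went from 8.21 to 6.19 (4.54 to 8.53). The KO log2 ratio of Calb1 was 1.92 (1.16 to 2.69) with at least 2 Pax2 and Pax8 UMIs on the positive side. With only members of at least 2 claudin UMIs, also chosen after seeing the data, it was 1.82 (1.19 to 2.49). In KO, the 5 Pax2/Pax8-high members held 108 of the 113 Lhx1 UMIs of the positive side. The kidney cadherin gene Cdh16 had too few UMIs for the count of genes, with 17 on the positive and 1 on the negative side in WT and 10 and none in KO.

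Genes of the GDNF and RET pathway, by which the duct responds to signals of the mesenchyme, were split in the same direction. Ret, Gfra1, Etv4, Etv5 and Wnt11 of this list are on the nephric duct list too, so the lists are not independent. The medians of the pathway list without WT 2 were not computed. Of 10 measured, 3 were at least 2-fold higher in both libraries, against 0.534% of all genes, and 0 lower, with medians of 1.94 in WT and 0.74 in KO. The target genes Etv4 (log2 ratio 2.10 in WT and 2.17 in KO), Spry1 (2.17 and 1.59) and the coreceptor gene Gfra1 (1.45 and 1.38) were among them. The receptor gene Ret itself stood at 68.1 against 0.362 CPM in WT, but at 11.4 against 10.5 CPM in KO, a log2 ratio of 0.12. There 1 negative member, KO 16, held all 26 Ret UMIs of the negative side, of the 81 of all members. Without KO 16, an alternative chosen after seeing the data, the KO log2 ratio of Ret was at least 3.19. As a mean of the CPM of each member it was 2.33. In WT, WT 3 held 15 of the 44 Ret UMIs of the positive side, with 9 Dbh, 8 Sox10, 69 Barx1 and 186 collagen UMIs, no claudin UMI and 1 Pax2 UMI. KO 16 also held 91.3% of the UMIs of Dbh and all of Chga, genes of sympathetic and chromaffin cells, in which Ret is known to be expressed.

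The lists of other cell types went in both directions. The germ cell list had a median log2 ratio of -2.0 in WT and -0.68 in KO, with 3 of 14 genes at least 2-fold lower in both, against 2.01% of all genes. KO 14, the germ cell member with 2 Pax8 UMIs, lies on the positive side in KO. The surface ectoderm list had medians of -0.84 and -3.50, with 2 of 7 genes lower in both. The fibroblast and smooth muscle list had medians of -0.84 and -1.27, with 4 of 15 lower in both, but Col3a1 stood at 388 against 375 CPM in WT and 217 against 480 CPM in KO. WT 3 held 146 of the 251 Col3a1 UMIs of the positive WT side, and the WT log2 ratio, 0.05, became -1.44 with at least 2 Pax2 and Pax8 UMIs and -1.28 with at least 5 Epcam and Cdh1 UMIs. The tubule list, which includes Wnt4, Six2 and Osr1, had medians of -0.36 and 0.45, with 0 of 18 higher and 2 lower in both, and Wnt4 stood at 89.7 against 62.2 CPM in WT and 476 against 89.0 CPM in KO. The KO log2 ratio of Wnt4, 2.42, turned to -0.21 with at least 5 Epcam and Cdh1 UMIs and to -1.91 with only members of at least 2 claudin UMIs. Its WT log2 ratio, 0.53, became -0.41 (-1.10 to 0.22) without the highest doublet scores. The coelomic list had medians of 0.85 and -1.92, and the neuronal list 3.27 and -2.50 over 8 genes. Single barcodes held much of these levels. On the negative KO side, KO 16 held all UMIs of Dbh, Phox2a and Chga and 58 of the 60 of Chgb. On the positive WT side, WT 3 had 9 Dbh UMIs, WT 21 had 27 Stmn2 UMIs, and WT 5 held 50 of the 56 Lhx9 UMIs. Few genes of the other lists passed the minimum of UMIs, with medians of 1.17 and 0.11 over 3 endothelial genes and 0.59 and 0.35 over 2 neural crest genes. In these medians a gene with no UMI on a side was set at its bound, from 3 UMIs. With the Dppa5a members left out, an alternative chosen after seeing the data, the germ cell medians became -0.20 and 0.81, and with only members of at least 2 claudin UMIs the KO fibroblast median became 1.21.

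**Figure D4:**
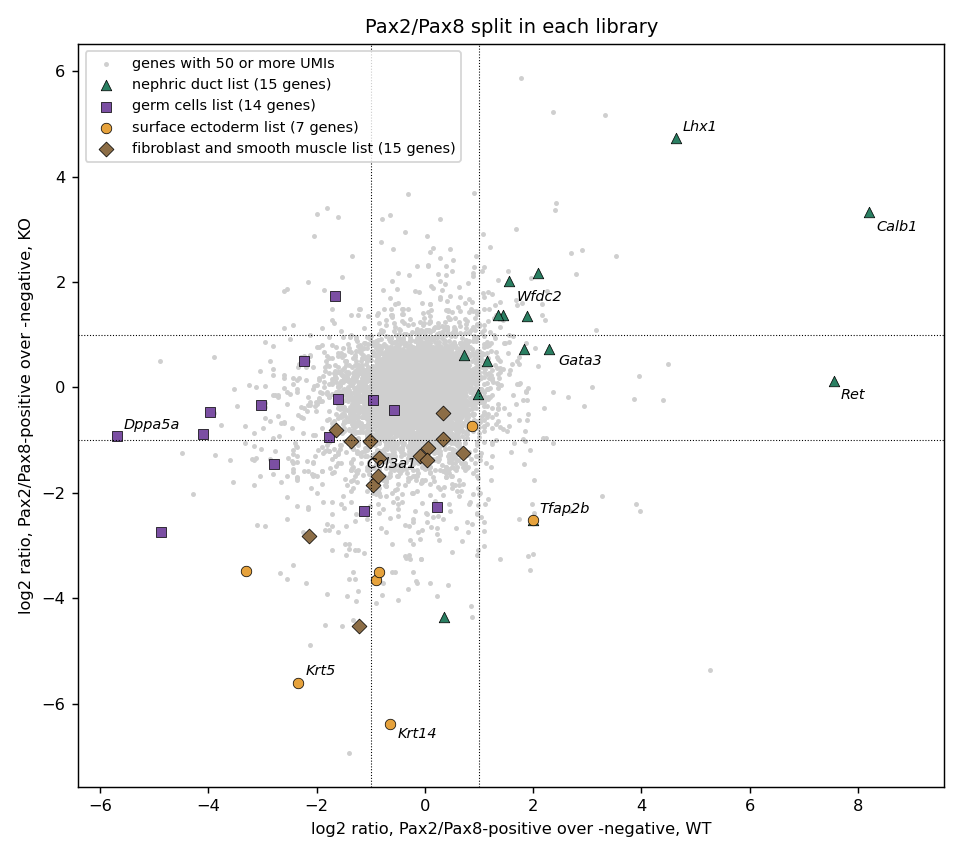
Log2 ratio of Pax2/Pax8-positive over -negative members in WT (x axis) and KO (y axis), 1 point per gene with at least 50 UMIs, with dotted lines at 2-fold and 4 lists marked; genes with no UMI on a side are drawn at their bound from 3 UMIs. Nephric duct genes (triangles) lie mostly right of 0, led by Calb1 and Lhx1 at the upper right, Ret lies near 0 in KO, and Krt5 and Krt14 lie at the bottom. The KO place of Ret rests on KO 16, without which the KO log2 ratio was at least 3.19.

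The 12 genes with the largest pooled ratio and the same direction in both libraries were Spp1, Calb1, Lhx1, Rmst, Sp5, Fhod3, Clu, Emid1, Espn, Ret, Kctd14 and Cldn3. Cldn3, the claudin of the group, stood at 104 against 15.9 CPM in WT and 37.7 against 6.47 CPM in KO. Rmst, a long noncoding RNA, stood at 72.7 against 7.23 CPM and 130 against 3.64 CPM, and Sp5, a target of canonical WNT signals, at 35.6 against 6.87 CPM and 45.6 against 1.21 CPM. Spp1 rested on KO 2, and Clu was past 2-fold in KO only, with a log2 ratio of 0.90 in WT and 3.69 in KO. The 12 genes with the smallest ratio were Krt14, Krt5, En1, C1qtnf3, Zic1, Dapl1, Fxyd3, Cav1, Ogn, Apela, Ebf3 and Nefl. In WT, Krt14, Ogn and Apela had no UMI on the positive side. Their WT log2 ratios were at most -0.64, -0.78 and -0.32, bounds that do not reach 2-fold. En1 and Zic1, factors of the body wall and neural tube, had no UMI on the positive side in WT and 1.14 and 2.28 CPM in KO, against 16.6 and 13.4 CPM, and 25.9 and 53.0 CPM, on the negative side. Nefl, a neurofilament gene, rested on KO 16 with 64.6% of its UMIs.

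Kitl, the stem cell factor that blood stem cells of the AGM depend on (chromosome 10, 100015630 to 100100416), was the 1 gene of 6 measured in the list of blood niche ligands that was at least 2-fold higher on the positive side in both libraries (0.534% of all genes). It stood at 156 against 17.4 CPM in WT, a log2 ratio of 3.17 (2.66 to 3.70), and at 25.1 against 11.7 CPM in KO, a log2 ratio of 1.10 (0.23 to 1.95). With at least 2 Pax2 and Pax8 UMIs on the positive side the KO ratio was 0.44 (-0.62 to 1.43), under 2-fold. In WT 5, WT 21, WT 33 and WT 2 it had 24, 28, 16 and 23 UMIs. WT 5 and WT 21 had 50 and 4 Lhx9 UMIs, and WT 33 had 1. In KO the 18 positive members had at most 4 each. Cxcl12, the chemokine that retains blood stem cells, and Igf1 were at least 2-fold lower on the positive side in both, with Cxcl12 at 46.4 against 102 CPM in WT and 31.9 against 101 CPM in KO.

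KO was then compared with WT on each side of the split. Of 4274 genes with at least 50 UMIs over the positive members, 155 (3.63%) were at least 2-fold higher and 129 (3.02%) at least 2-fold lower in KO, and of 8678 over the negative members, 132 (1.52%) were higher and 135 (1.56%) lower. The sides differ in size, so these shares are not compared. The makeup of the positive side differed, since 5 of 18 KO members but 1 of 11 WT members had 10 or more Pax2 and Pax8 UMIs, and Lhx9 at 3 or more UMIs occurred in 2 WT and no KO members there.

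On the positive side, the 10 genes with the largest increase in KO were Npy, Dppa5a, Notum, Dlgap1, Spp1, Egfl6, Hoxa10, Slc4a4, Rhox6 and Pdzd2. Npy stood at 119 (KO) and 1.55 CPM (WT), and Notum, an enzyme that inactivates WNT proteins, at 70.8 and 1.55 CPM. Dppa5a stood at 252 CPM in KO from KO 14 and had no UMI in WT, a log2 ratio of at least 5.76. The 10 with the largest decrease were Xist, Cck, Barx1, Gm45889, Hist1h2ap, Fos, Lhx9, Fxyd2, Gm10076 and Usp50. Single barcodes held much of these levels. KO 2 held 67 of the 104 Npy and 98 of the 104 Spp1 UMIs of the positive KO side, and KO 14 held all 53 of Rhox6. In WT, WT 3 held all 53 UMIs of Cck, cholecystokinin, and 69 of the 77 of Barx1, WT 5 held 50 of the 56 of Lhx9, and WT 36 held 37 of the 54 of Fxyd2. Fos, an early response gene, stood at 9.13 (KO) and 248 CPM (WT), but WT 5 held 142 of the 160 WT UMIs, and the WT level without it was 34 CPM. Wnt4 stood at 476 (KO) and 89.7 CPM (WT), a log2 ratio of 2.41, but -0.039 when only members with at least 2 claudin UMIs were kept. Calb1 stood at 113 (KO) and 322 CPM (WT), a log2 ratio of -1.51, which turned to 0.51 without WT 2 and to 1.10 as a mean of the CPM of each member, so its direction depended on 1 barcode.

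On the negative side, the 10 genes with the largest increase were Dbh, Pcsk1n, Ddx3y, Eif2s3y, Gm47283, Phox2a, Chga, Kdm5d, Chgb and Cxcl14. KO 16 held at least 91.3% of the UMIs of Dbh, Pcsk1n, Phox2a, Chga and Chgb, and the Y-linked genes marked the sex of the library. Cxcl14 stood at 161 (KO) and 7.96 CPM (WT), with a log2 ratio of 4.33 (3.72 to 5.03). It had UMIs in 22 KO and 7 WT members, and the 10 KO keratin members held 297 of its 434 UMIs. Among the 10 with the largest decrease were Xist, Barx1, Hist1h2ap, Foxa2, Gm10076, Shh, Hist1h2br, Usp50 and St8sia4. Foxa2 stood at 0.809 (KO) and 26.8 CPM (WT), and Shh at 2.43 and 45.9 CPM. Of 7 measured genes of the pan-endoderm list, 4 were at least 2-fold lower in KO (1.56% of all genes), namely Foxa2, Shh, Foxa1 and Cldn6, and Apela was higher. Of 7 surface ectoderm genes, 5 were higher (1.52% of all genes) and 0 lower. The makeup of this side differed too, with 6 WT and 0 KO members at 5 or more UMIs of Shh and Foxa2. Members at 5 or more UMIs of Krt5, Krt14 and Krt15 numbered 4 in WT and 10 in KO. Both lists hold genes that made these groups, so their counts restate this makeup in part and are no separate result.

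Some of these differences were of similar size in the other barcodes of the same libraries. Among the barcodes outside the members, the log2 ratio of KO over WT was -4.35 for Gm10076, -3.61 for Usp50, -5.15 for Hist1h2ap and -10.97 for Xist. Barx1 was lower in KO there as well, at -5.45, but further apart in the negative members, at -7.85 (-10.90 to -5.99). St8sia4, by contrast, had a ratio of -0.10 there, and Cxcl14 had 1.11. St8sia4 was among the leading genes of the cluster of 12 members that came from WT alone, which held 39 of its UMIs. WT 20 of that cluster held 22 of the 71 WT UMIs of the negative side. Foxa2 and Shh had 0.08 and 0.57 in the other barcodes, but from very low levels. Foxa2 stood at 0.061 (WT) and 0.065 CPM (KO), and Shh at 0.068 and 0.101 CPM. The rule kept all 6 WT barcodes with 5 or more UMIs of Shh and Foxa2, so their ratios outside the members cannot serve as a comparison. Gm10076 is a ribosomal pseudogene with near-identical copies, and Hist1h2ap belongs to a histone family, so their counts are uncertain.

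**Figure D5:**
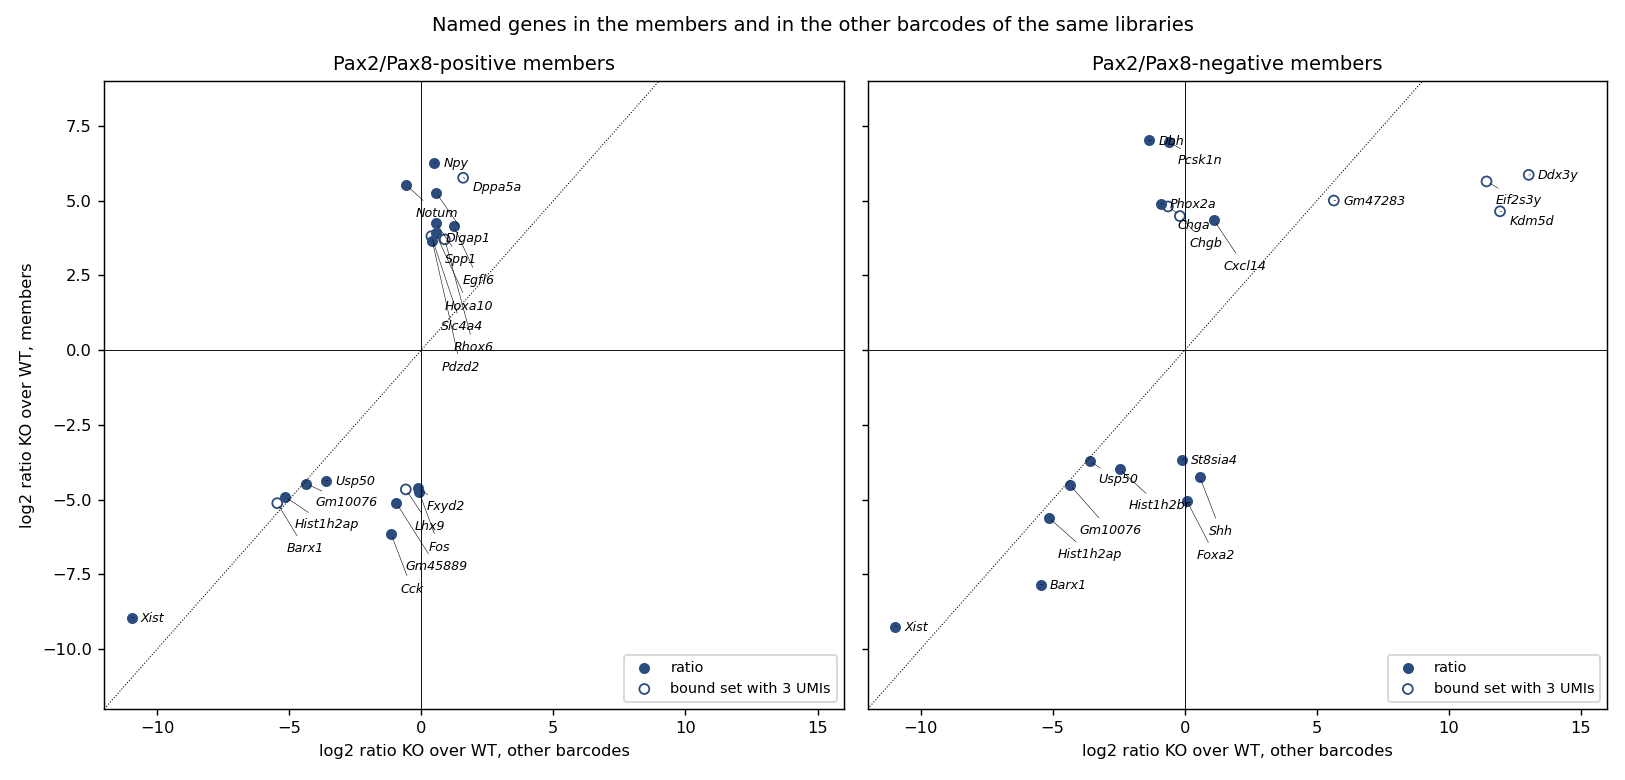
Log2 ratio of KO over WT in the members (y axis) against the same ratio in the other barcodes (x axis) for the genes named on each side of the Pax2/Pax8 split, with open points for bounds set from 3 UMIs and a dotted line where both ratios are equal. Hist1h2ap, Gm10076 and Usp50 lie near the line and Xist and Barx1 lie at the lower left, whereas Foxa2, Shh, Npy and Dbh lie near 0 on the x axis or on its other side. For Foxa2 and Shh the x value is no comparison, since they stood at 0.061 to 0.101 CPM in the barcodes the rule left outside the members.

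The PDGF family was described because its receptor was deleted. Pdgfa, the ligand of PDGFRα that epithelia are known to make (chromosome 5, 138976014 to 138997370), stood at 37.2 (WT) and 126 CPM (KO) in the members, against 22.2 and 34.9 CPM in the other barcodes. On the positive side it stood at 27.9 (WT) and 177 CPM (KO), and on the negative side at 39.4 and 108 CPM, log2 ratios of 2.67 and 1.45. As a mean of the CPM of each member the ratio on the positive side was 0.61. Within KO, Pdgfa stood at 281 CPM in the 5 Pax2/Pax8-high KO members, where it had 39, 32, 31, 18 and 13 UMIs, at 271 CPM in the KO keratin members and at 214 CPM in the KO Dppa5a members. It stood at 151 CPM in the WT Dppa5a members and at 39.2 CPM in the 4 WT keratin members, and in the Calb1 members at 20.1 (WT) and 14.8 CPM (KO). In the 95 members in no group Pdgfa stood at 27.1 (WT) and 52.7 CPM (KO). Pdgfb, the ligand of the deleted receptor, had 6 UMIs over all members. Pdgfc stood between 43.3 and 51.0 CPM on both sides in both libraries. Pdgfra, the other receptor, stood at 195 and 59.3 CPM on the positive side of WT and KO and at 154 and 83.3 CPM on the negative side, and in the Pax2/Pax8-high KO members at 4.23 CPM. WT 3 held 80 of the 126 Pdgfra UMIs of the positive WT side.

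Cell cycle and metabolic genes were also measured. Of the 16 S phase and 16 G2 and M phase genes measured, none was at least 2-fold higher or lower on the positive side in both libraries, against 0.534% and 2.01% of all genes, and the summed level of the G2 and M phase list was 2775 against 3811 CPM in WT and 2987 against 3995 CPM in KO. The glycolysis and hypoxia list was higher on the positive side in sum, at 7053 against 4881 CPM in WT and 7061 against 5573 CPM in KO, against 4480 and 4515 CPM in the other barcodes, with medians of 0.49 and 0.39 over 17 genes and none past 2-fold in both.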

How the data were processed

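The authors aligned the reads to mm10 (GRCm38) with Cell Ranger 3.1.0, per the labels, and deposited UMI counts for all 31053 genes and every barcode, without cell calling or normalization. UMI counts were summed over groups of barcodes and scaled to CPM. Ratios were taken as log2 of CPM, with conditional exact binomial intervals at 95% over genes with at least 50 UMIs, shares have exact (Clopper-Pearson) intervals, and past the fold means at least 2-fold. A group without a UMI was set at 3 UMIs, which gives a bound. No count model was fitted, since each genotype has 1 library. Members were clustered (Leiden, resolution 1, 20 principal components, 10 neighbors). Doublets were kept, as in the study, and KO barcodes with Pdgfrb were kept, unlike in the study. The genes named are those of the lists and the 12 or 10 with the largest ratios in each direction. Members and lists were chosen with earlier results of these data known. Python 3.11.15, numpy 2.4.6, scipy 1.17.1, pandas 2.3.3, scanpy 1.11.5, R 4.3.3 and edgeR 4.0.16 (TMM factors only) were used. Intervals were tested on simulated data. Results of some genes are not reported here. Positions are from GENCODE M21, of the same assembly. There were 32 alternatives, and 11 were added after seeing the data.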

Additional observations from a re-analysis of the deposited data

Results flagged for a closer look

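In the genes below the ratio of Pax2/Pax8-positive over -negative members went in opposite directions in the WT and KO libraries, past 2-fold in each. The difference between the libraries was not tested, and each library is 1 sample. Tfap2b, an AP-2 factor of the distal nephron and neural crest, had a log2 ratio of 1.99 in WT and -2.53 in KO. Six2 and Cdh6, of nephron progenitors and early tubules, had -1.19 and -1.21 in WT and 1.5 and 1.5 in KO. On the negative WT side, WT 1, with no claudin UMI, had 29 Six2 UMIs, and WT 4 and WT 7 had 23 and 20 Cdh6 UMIs. The ratios without these members were not computed. Kit, the receptor for Kitl, had -1.67 in WT and 1.73 in KO. The 3 WT Dppa5a members, all negative, held 20, 14 and 19 of the 95 Kit UMIs of their side, and in KO the positive side held 47, with 20 in KO 7 and 10 in KO 14, a Dppa5a member. The neuronal genes Tubb3 (2.68 and -2.34), Stmn2 (3.27 and -2.07) and Dbh (5.27 and -5.36) were higher on the positive side in WT and lower in KO, where KO 16, a negative member, held 57.8% of the Stmn2 and 91.3% of the Dbh UMIs of all members. In WT, WT 3 held 9 of the 10 Dbh UMIs and WT 21 held 27 Stmn2 UMIs.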

How the results depend on the processing

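No paired analysis was possible because each genotype has 1 library. Of 178 values that answer a comparison, computed under alternatives, 130 stayed close to the reported value, 47 were counted as moved and 1 as reversed. Of 395 values of single genes, these counts were 329, 60 and 6. Some values counted as moved also changed sign, among them the KO germ cell median, from -0.68 to 0.81 without the Dppa5a members. The WT log2 ratio of Col3a1 in the split did so too, from 0.05 to -1.44 with at least 2 Pax2 and Pax8 UMIs. The number of members moved most: with at least 2 Epcam and Cdh1 UMIs it was 146 in WT and 187 in KO, with at least 5 it was 32 and 35, with a mitochondrial share under 5% it was 18 and 28, and after thinning to 2000 UMIs it was 3 and 3. The share with Pax2 or Pax8 was 4.29% and 7.59% after thinning, 11.8% in KO with at least 2 Epcam and Cdh1 UMIs, and 27.3% and 37.5% among members with at least 2 claudin UMIs.

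Counts of genes past 2-fold followed the minimum of UMIs per gene. With at least 20, 112 were higher on the positive side in both libraries, KO over WT gave 465 higher and 409 lower on the positive side and 347 and 307 on the negative side. With at least 200 the split gave 12 higher and 45 lower, and KO over WT gave 11 and 22, and 19 and 31. As a mean of the CPM of each member, the split gave 93 higher, and KO over WT gave 233 lower on the positive and 255 lower on the negative side, and the ratio of Calb1 on the positive side turned to 1.10. Without the highest doublet scores 93 genes were higher in KO on the positive side, and without KO barcodes with Pdgfrb 221 were lower on the negative side.

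The median of the fibroblast list in WT was -1.57 with at least 2 Pax2 and Pax8 UMIs on the positive side. With at least 200 UMIs per gene the duct median in KO was 1.68 and the germ cell median in WT -4.10. The germ cell median in KO was -3.01 without the highest doublet scores. With at least 5 Epcam and Cdh1 UMIs the KO medians were 1.98 (duct) and -2.45 (germ cells), and Wnt4 turned to -0.21.

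Alternatives chosen after seeing the data left out single barcodes or groups. Without WT 2, 29 genes were higher in the split, the WT duct median was 0.72 and Calb1 in KO over WT turned to 0.51. The KO duct median was 1.40 without KO 16 and 1.34 without the Dppa5a members, which took the germ cell medians to -0.20 and 0.81. With only members of at least 2 claudin UMIs, 81 genes were lower in the split, KO over WT gave 71 lower on the positive side and 52 higher and 218 lower on the negative side, the WT germ cell median was -2.72, the KO fibroblast median and Col3a1 turned to 1.21, and Wnt4 turned to -1.91 in the KO split and to -0.039 in KO over WT. Clustering at resolution 0.5 gave 5 clusters. The causes were not tested beyond what each alternative removes. The positive WT side held the fewest UMIs in sum of the sides compared, with 646423 in 11 barcodes.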
